A study of Mus musculus with 10 samples.

Results

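The angiopoietin-Tie and apelin systems were followed here through 7 genes, of 21956 listed in the deposited table: the angiopoietin ligands Angpt1 and Angpt2, the receptor genes Tek and Tie1, the apelin ligand and receptor genes Apln and Aplnr, and Esm1. They were chosen by gene symbol and each was found in 1 row. All 7 passed the filter on low counts. Poly(A) RNA of gastrocnemius, a large calf muscle, was sequenced in 10 libraries of wild-type mice, 5 under the treatment label Sham and 5 under HLI. HLI is read as hindlimb ischaemia, an abbreviation left unexplained in the labels. No age, sex, strain or time after treatment is given. The labels do not tie libraries to separate mice, so the spread behind every p-value is that of the libraries and may be technical.

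Angiopoietin 1, made largely by mural and other stromal cells, activates the receptor TIE2, the product of Tek, and keeps endothelium quiescent. Angiopoietin 2, made by endothelial cells themselves, acts on the same receptor as a context-dependent agonist or antagonist, and TIE1 is the co-receptor of TIE2. Apelin is a peptide made by sprouting endothelial tip cells, its receptor APJ is encoded by Aplnr, and endocan, the product of Esm1, is a proteoglycan secreted by tip cells. In whole muscle, fewer cells of a type and less RNA per cell cannot be told apart.

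Estimated counts summed to between 16556385 and 22136299 per library. Muscle fibre markers such as Ckm and Acta1 were abundant, at a summed 60257 to 184692 CPM (counts per 1000000 counts of the scaled library), and all 16 endothelial markers were detected in every library. A pair of libraries stood apart from their groups on the embryonic myosin gene Myh3, made in newly formed fibres. Myh3 was at 164 CPM in Sham replicate 1 against 3.97 to 5.63 CPM in the other Sham libraries, and at 7.71 CPM in HLI replicate 1 against 79.95 to 442 CPM in the other HLI libraries. Whether the labels of these 2 libraries were exchanged cannot be told from the files, and an exchange would change every HLI against Sham value given here. The labels were kept, and results are given with both libraries and, where stated, without them. That omission was chosen with earlier results of these libraries known, so the tests without them are not independent evidence. With all libraries, 0% of 13404 genes passed the edgeR quasi-likelihood test at an adjusted p under 0.05, while 16.9% had an unadjusted p under 0.05 and DESeq2 called 45 genes (0.313%), none of the 7 among them. In 0 of the 7 genes was every HLI library above every Sham library, against 0.776% of all genes, and 6 of the 7 had log2 fold changes above 0, against 53.8%. Without Sham replicate 1 and HLI replicate 1, edgeR called 54 of 13451 genes (0.401%).

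The start regions of 3 of these genes show what differs in sequence between Apln, which had the largest difference of the 7, Esm1, the lowest in level, and Tek, which had the smallest difference by edgeR. RefSeq start regions were at hand for 4 of the 7 genes, in build GRCm38.p6; that of Tie1 holds 212 bases of an annotated Tie1 exon and is not printed. The submitters' notes name mm8, so these coordinates are those of the reference and not of the deposited values. Each line gives the 250 bases before the start, 5′ to 3′ on the strand of the gene: chrX:48034854-48035103 (minus strand) for Apln, chr13:113209409-113209658 (plus strand) for Esm1 and chr4:94739039-94739288 (plus strand) for Tek. Capitals mark GGAAG, a common form of the core that ETS factors bind, and GCGTG or ACGTG, 2 forms of the core of HIF sites, on either strand.
Apln: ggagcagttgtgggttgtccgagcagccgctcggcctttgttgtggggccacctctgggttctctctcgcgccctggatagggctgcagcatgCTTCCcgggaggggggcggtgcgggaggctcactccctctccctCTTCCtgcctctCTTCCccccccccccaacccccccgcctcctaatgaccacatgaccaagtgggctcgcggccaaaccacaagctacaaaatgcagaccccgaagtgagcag
Esm1: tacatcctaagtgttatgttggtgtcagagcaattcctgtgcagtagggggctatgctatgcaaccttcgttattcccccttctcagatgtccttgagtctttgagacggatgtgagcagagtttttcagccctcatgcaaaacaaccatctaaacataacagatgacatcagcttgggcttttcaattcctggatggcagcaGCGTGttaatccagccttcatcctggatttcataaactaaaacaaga
Tek: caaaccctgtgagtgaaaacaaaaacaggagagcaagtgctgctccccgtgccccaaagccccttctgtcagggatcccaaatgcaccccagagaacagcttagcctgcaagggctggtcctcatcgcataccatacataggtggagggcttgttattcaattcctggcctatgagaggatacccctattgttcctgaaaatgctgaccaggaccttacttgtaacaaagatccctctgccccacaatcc
The Apln region held 3 GGAAG matches and is 65.2% G and C. The Esm1 region held 1 GCGTG and is 44% G and C, and the Tek region held none of these marked motifs. The Esm1 and Tek lines also hold the shorter GGAA on the other strand, which was not counted. In the Apln line it occurs only within the marked matches. The Tie1 region, not printed, held 6 GGAAG matches. Of 32851 RefSeq start regions of this length, 64.1% held GGAAG, 28.2% GCGTG and 16.6% ACGTG. A match of such short letters is a description and not a binding site.

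By level per transcript length, the receptors stood above the ligands. In TPM (transcripts per 1000000, scaled for gene length) the order of the means over all 10 libraries was Aplnr at 54.2 ± 25.8, Tie1 at 45.8 ± 13.9, Tek at 37.5 ± 6.15, Apln at 11.4 ± 5.84, Angpt2 at 6.63 ± 2.46, Angpt1 at 5.36 ± 3.09 and Esm1 at 2.59 ± 1.18 (SD, n = 10). Tek exceeded Apln in 10 of 10 libraries, so the receptors and ligands were fully separated. Within the receptors the order depended on the group. Aplnr exceeded Tie1, and Tie1 exceeded Tek, in 5 of 5 HLI libraries but each in 2 of 5 Sham libraries. Angpt2 exceeded Angpt1 in 6 of 10 libraries, so these neighbours did not differ beyond their spread. Esm1 rested on 26 to 84 estimated counts per library, against 1046 to 3224 for Aplnr, and its levels carry the most counting error of the 7.

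**Figure D1:**
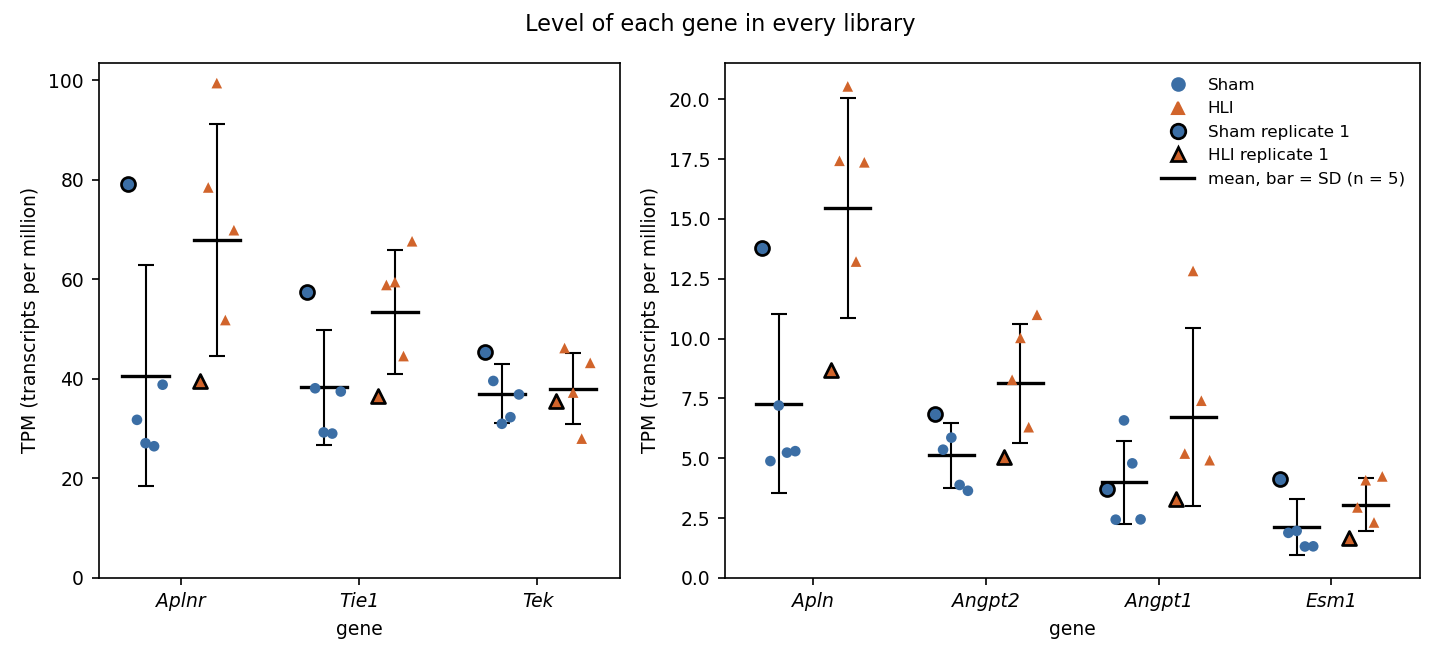
TPM of each gene (vertical axis, linear, from 0) in the Sham and HLI libraries, 1 point per library, with the mean and SD of 5 libraries. Sham replicate 1 and HLI replicate 1 are outlined in black. For Aplnr, Sham replicate 1 (79.2 TPM) sits among the HLI points. HLI replicate 1 (39.6 TPM) sits below the other HLI points and just above Sham replicates 2 to 5 (at most 38.8 TPM).

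Apln, the ligand gene, had the largest difference between groups. The Sham libraries held 23.6, 9.06, 12.7, 10.6 and 10.4 CPM in replicates 1 to 5, and the HLI libraries 13.8, 29.8, 27.6, 25.1 and 28.1 CPM. In CPM, every HLI library but replicate 1 was above every Sham library, and HLI replicate 1 was above every Sham library but replicate 1. In TPM, HLI replicate 4 (13.2) was also below Sham replicate 1 (13.8). The HLI mean was 1.87 times the Sham mean. The log2 fold change of 0.90 (SE 0.28, unadjusted p = 0.0068, edgeR adjusted p = 0.29) did not pass. Of all genes, 1.79% had a smaller p. Without Sham replicate 1 and HLI replicate 1 the log2 fold change was 1.37 (SE 0.13, edgeR adjusted p = 0.0091), and Apln had the smallest p of the 13451 genes.

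Aplnr, the gene of the apelin receptor, had the highest mean TPM of the 7 genes over all 10 libraries. In CPM, its highest library of all 10 was Sham replicate 1 at 160 CPM. Sham replicates 2 to 5 had 69.2, 56.0, 63.2 and 89.6 CPM. In TPM, HLI replicate 3 (99.4) was the highest library, above Sham replicate 1 (79.2). HLI replicate 1 had 73.8 CPM, and HLI replicates 2 to 5 had 157, 157, 116 and 133 CPM. The HLI mean was 1.45 times the Sham mean; the log2 fold change was 0.54 with SE 0.29 (edgeR adjusted p = 0.33). Leaving out Sham replicate 1 alone gave 0.87 (adjusted p = 0.16), and leaving out both replicates 1 gave 1.02 (SE 0.17, edgeR adjusted p = 0.043).

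Angpt2, the endothelial angiopoietin, was at 13.3, 11.2, 11.7, 8.92 and 8.08 CPM in Sham replicates 1 to 5 and at 9.09, 15.99, 15.2, 13.5 and 20.1 CPM in HLI replicates 1 to 5. In CPM, HLI replicates 2 to 5 were above every Sham library, and HLI replicate 1 was within the Sham range. In TPM, 3 HLI libraries were above every Sham library, as HLI replicate 4 (6.30) was below Sham replicate 1 (6.85). The log2 fold change was 0.47 (SE 0.21, edgeR unadjusted p = 0.040, adjusted p = 0.29), and without both replicates 1 it was 0.70 (SE 0.17, adjusted p = 0.12). Apln and Angpt2 were the 2 of 7 genes with an unadjusted p under 0.05 in the higher direction. This was so for 10.7% of all genes and for 5 of the 16 endothelial markers. In the lower direction 0 of 7 had one, against 6.15% of all genes.

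Angpt1, the stromal ligand, divided the libraries in another way. It was at 8.60, 6.10, 15.7, 13.2 and 6.49 CPM in Sham replicates 1 to 5 and at 7.05, 12.01, 23.3, 19.0 and 10.8 CPM in HLI replicates 1 to 5. The groups overlapped, and Sham replicates 3 and 4 were above HLI replicates 1, 2 and 5. Its log2 fold change was 0.53 (SE 0.35, edgeR adjusted p = 0.39), 0.29 without HLI replicate 3 and 0.65 without both replicates 1 (adjusted p = 0.30). HLI replicate 3, the highest library for Angpt1, had the lowest summed level of muscle fibre markers (60257 CPM). It also had the highest summed level of fibro-adipogenic markers (11191 CPM, against 5997 to 8141 CPM in Sham). HLI replicate 4, the next highest for Angpt1, lay at the other end of the HLI libraries on both, at 161177 and 3351 CPM. The part of these markers' cells in the Angpt1 level was not tested.

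The receptor genes Tek and Tie1 did not move alike. Tie1 was at 128, 91.9, 67.0, 76.6 and 95.7 CPM in Sham replicates 1 to 5 and at 75.6, 131, 104, 110 and 142 CPM in HLI replicates 1 to 5. HLI replicates 2 to 5 were above Sham replicates 2 to 5, whereas Sham replicate 1 and HLI replicate 1 lay on the opposite sides. Its log2 fold change was 0.29 (SE 0.20, edgeR adjusted p = 0.41). Without both replicates 1 it was 0.56 (SE 0.16, adjusted p = 0.14). Tek was at 111, 104, 78.8, 93.7 and 103 CPM in Sham and at 80.7, 112, 71.7, 76.1 and 99.1 CPM in HLI, in the order of the replicates, and the groups overlapped. Its log2 fold change was -0.16 (SE 0.15, edgeR adjusted p = 0.53), and -0.08 (SE 0.17) without both replicates 1. On log2(TPM + 1), which does not correct for the composition of the libraries, Tek stood at 0.030 while the median of all genes was 0.19, so that relative to this median it was at -0.16.

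Esm1, the endocan gene, was at 4.74, 2.33, 2.30, 1.77 and 1.72 CPM in Sham replicates 1 to 5 and at 1.76, 3.35, 3.65, 2.93 and 4.57 CPM in HLI replicates 1 to 5. In CPM, Sham replicate 1 was the highest of all 10 libraries, and HLI replicate 1 was below Sham replicates 1 to 4. Its log2 fold change was 0.34 (SE 0.33, edgeR adjusted p = 0.56). Omitting Sham replicate 1 alone gave 0.67, and omitting HLI replicate 5 alone gave 0.18. Without both replicates 1 it was 0.83 (SE 0.24, adjusted p = 0.15).

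**Figure D2:**
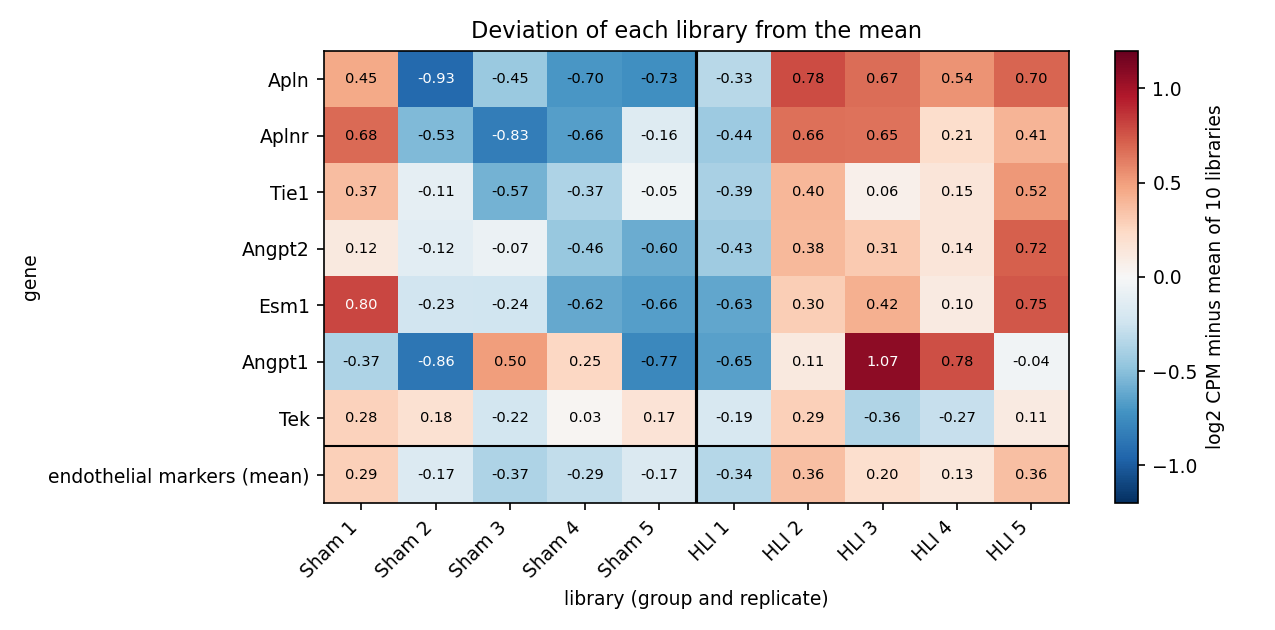
Log2 CPM of each gene in each library minus its mean over the 10 libraries (colour and printed value), with the mean of 16 endothelial markers in the bottom row and a line between Sham and HLI. In the upper 5 rows and the bottom row, Sham replicate 1 is above and HLI replicate 1 below the mean, opposite to the other libraries of their groups; the Tek and Angpt1 rows do not follow this.

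Apln, Aplnr, Tie1, Angpt2 and Esm1 shared this library pattern. Over the 10 libraries, Pearson correlations of log2 CPM among these 5 genes ran from 0.71 to 0.90, as a description of libraries that share depth, composition and group. Without both replicates 1, every HLI library was above every Sham library in 5 of the 7 genes, which are these 5, against 5.92% of all genes. Of the 16 endothelial markers 12 did so as well, so this separation was shared with most of that list. It was found in 8 of 20 tip cell genes and 2 of 6 arterial markers, and in 0 of 5 venous and 0 of 7 lymphatic markers. In the same comparison 2 of the 7 genes were called higher, Apln and Aplnr, against 0.379% of all genes and 2 of the 16 endothelial markers. The median log2 fold change of the 7 was 0.70, against 0.03 over all genes and 0.47 over the endothelial markers. With all libraries, the medians were 0.47, 0.03 and 0.23.

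**Figure D3:**
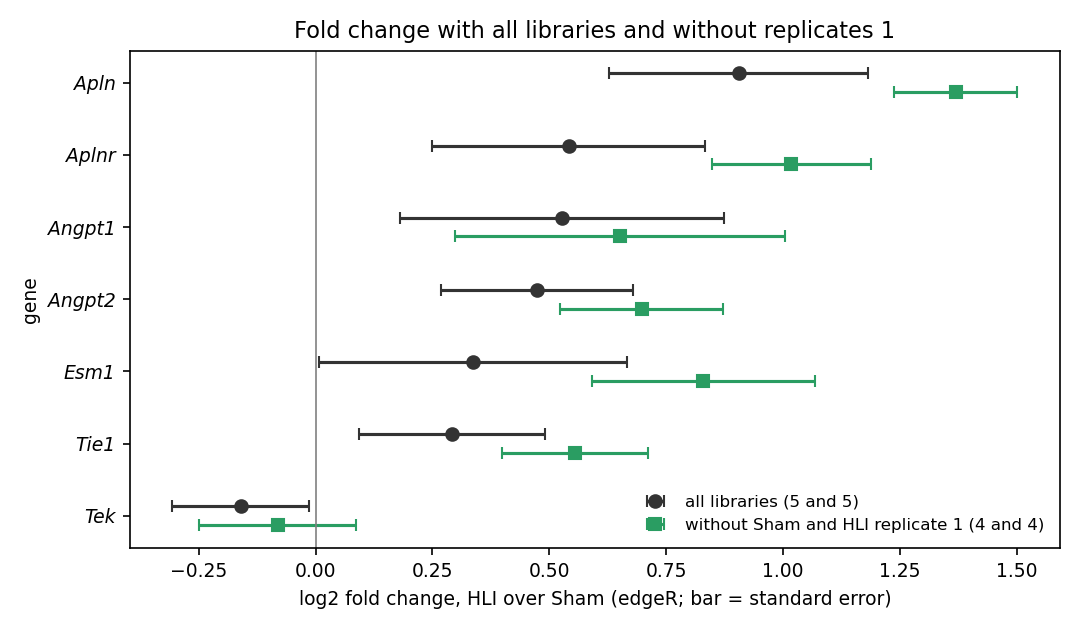
Log2 fold change of HLI over Sham from edgeR with its standard error, for all 10 libraries and without replicate 1 of each group. Apln goes from 0.90 to 1.37 and Aplnr from 0.54 to 1.02, while Tek stays near 0 in both.

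Because endothelial transcripts as a group varied between libraries, each gene was also set against the mean log2 CPM of the 16 endothelial markers in its own library. That mean was 5.34 to 6.002 in Sham and 5.37 to 6.08 in HLI, highest in Sham at replicate 1 and lowest in HLI at replicate 1. On this log2 scale Tie1 differed by 0.0076 (SE 0.18), Esm1 by 0.08 (SE 0.28), Angpt2 by 0.16 (SE 0.21) and Angpt1 by 0.21 (SE 0.34). The limma-trend adjusted p of these genes ran from 0.66 to 0.98. Aplnr differed by 0.31 (SE 0.21, limma-trend adjusted p = 0.37). Apln was higher by 0.65 (SE 0.22, unadjusted p = 0.0074, limma-trend adjusted p = 0.21) and Tek differed by -0.46 (SE 0.20, unadjusted p = 0.032, adjusted p = 0.21), neither past the threshold, which 0% of genes passed. Of all genes, 1.95% had an unadjusted p under 0.05 in the higher direction and 19.6% in the lower one, a tilt that the subtraction itself gives where the marker mean is higher. With pericyte and smooth muscle markers as the reference in place of endothelial ones, Tek differed by -0.07 (limma-trend adjusted p = 0.80). Apln differed by 1.04 (limma-trend unadjusted p = 0.0023), Aplnr by 0.70 (unadjusted p = 0.020), Angpt2 by 0.55 (unadjusted p = 0.020) and Tie1 by 0.39 (unadjusted p = 0.045). Their limma-trend adjusted p ran from 0.32 to 0.34. Of 13404 genes, 1684 had an unadjusted p under 0.05 in the higher direction with this reference.

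Without HLI replicate 1 both Apln (0.73, limma-trend adjusted p = 0.044) and Tek (-0.55, adjusted p = 0.046) passed, in a comparison that called 0.399% of all genes higher and 16.8% lower. Without both replicates 1, Apln was higher relative to endothelial markers by 0.85 (SE 0.16, limma-trend adjusted p = 0.0042) and Aplnr by 0.51 (SE 0.15, adjusted p = 0.017), in a comparison that called 0.900% of all genes higher. Tek was lower by 0.61 (SE 0.13, limma-trend adjusted p = 0.0056), where 47.8% of all genes were called lower, so its call is shared with a large share of the table. Tie1 differed by 0.042 (SE 0.12) and Angpt2 by 0.18 (SE 0.18), and neither passed.

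**Figure D4:**
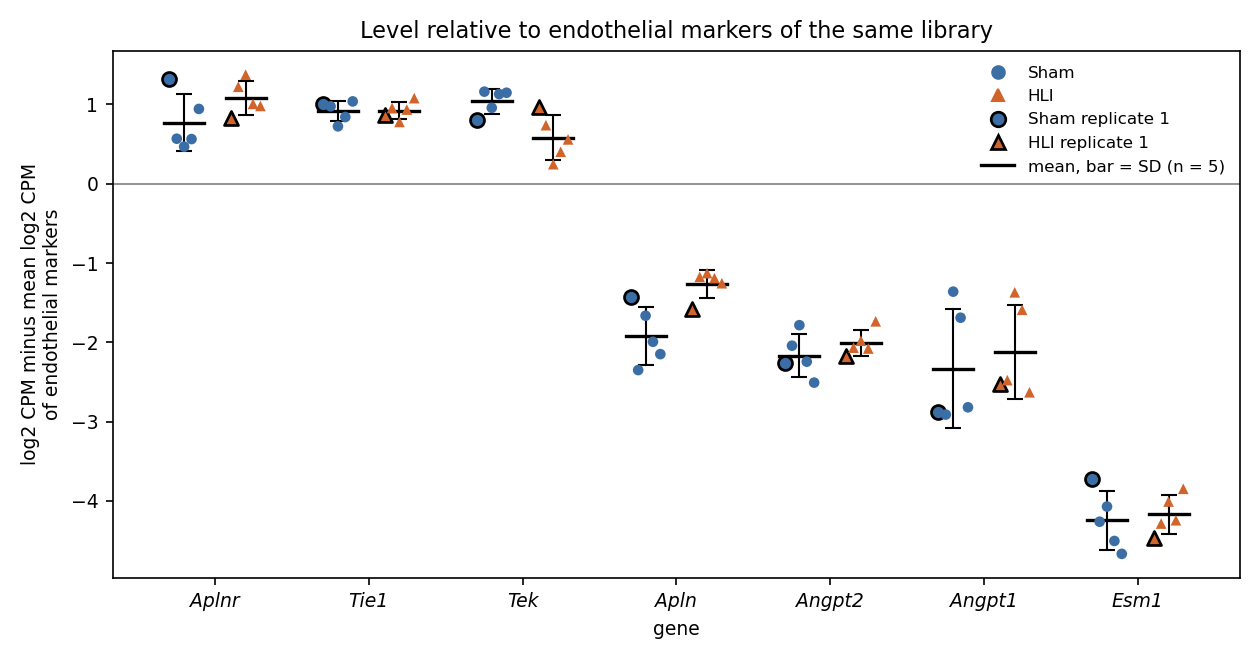
Log2 CPM of each gene minus the mean log2 CPM of 16 endothelial markers of the same library, 1 point per library, with mean and SD of 5 libraries. HLI replicates 2 to 5 of Apln sit between -1.25 and -1.13, above all Sham points, while the Tie1 points of both groups lie between 0.72 and 1.08.

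Ratios within a library need no scaling between libraries. The ratio of Tek to Tie1 in TPM was 0.791, 1.04, 1.06, 1.11 and 0.984 in Sham replicates 1 to 5, and 0.969, 0.785, 0.627, 0.628 and 0.639 in HLI replicates 1 to 5. Sham replicate 1 was the lowest Sham library and HLI replicate 1 the highest HLI library, and only these 2 libraries overlapped the range of the opposite group. The mean was 0.997 ± 0.124 in Sham and 0.729 ± 0.149 in HLI (SD, n = 5), a mean log2 difference of -0.46 (exact two-sided permutation p = 0.016, adjusted p = 0.048 over 3 ratios, with 0.0079 the smallest p the design allows). The call was lost on leaving out any 1 of Sham replicates 2, 4 and 5 and HLI replicates 2 to 5 (permutation adjusted p from 0.095 to 0.14). With these libraries left out in turn, the difference stayed between -0.50 and -0.41. Without both replicates 1 the difference was -0.65, and its exact permutation p of 0.029 was the smallest that 4 against 4 libraries can give (adjusted p = 0.086).

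The ratio of Angpt2 to Angpt1 did not differ beyond its spread, at 1.45 ± 0.602 in Sham and 1.40 ± 0.600 in HLI (SD, n = 5; exact permutation p = 0.86). It was under 1 in Sham replicates 3 and 4 and in HLI replicates 3 and 4, and between 1.49 and 2.24 in the other 6 libraries. Apln over Aplnr was 0.186 ± 0.0505 in Sham and 0.230 ± 0.0206 in HLI (SD, n = 5; exact permutation p = 0.095, adjusted p = 0.14). The Sham libraries ran from 0.136 to 0.266 and the HLI libraries from 0.207 to 0.255, so HLI lay within the Sham range. Without Sham replicate 3, the highest Sham library, the adjusted p was 0.024.

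**Figure D5:**
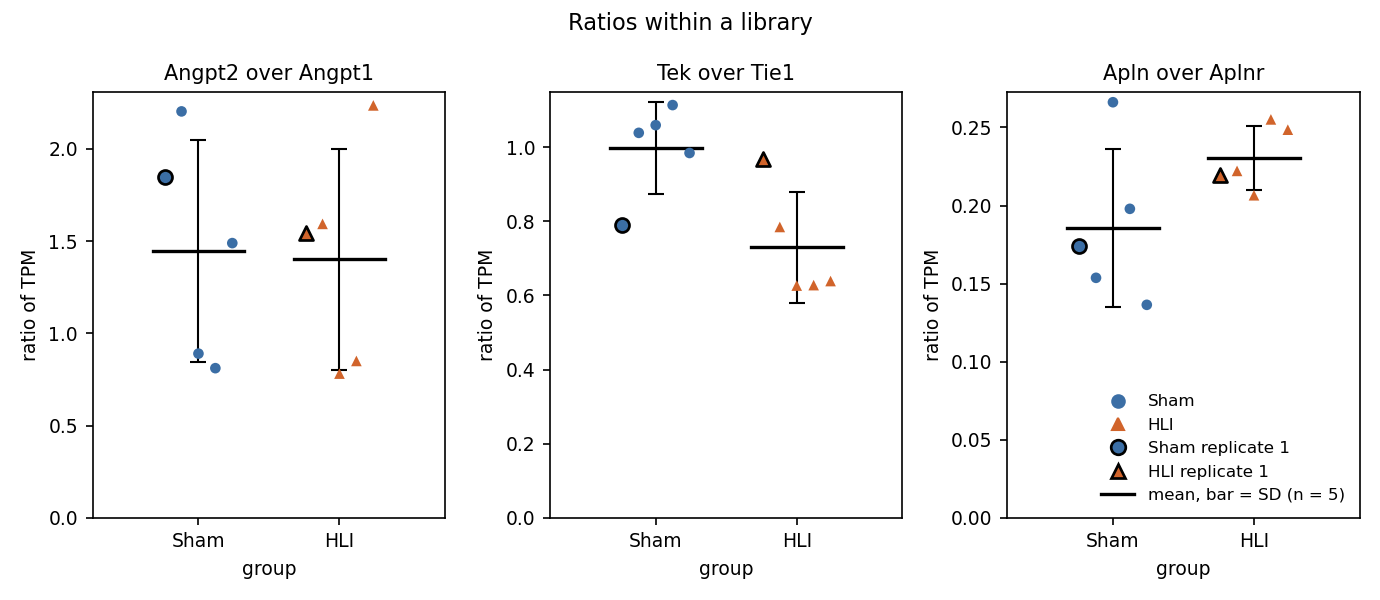
Ratio of TPM within each library (vertical axes from 0) for Angpt2 over Angpt1, Tek over Tie1 and Apln over Aplnr, with mean and SD of 5 libraries. Tek over Tie1 is at 0.627 to 0.785 in HLI replicates 2 to 5 and at 0.984 to 1.11 in Sham replicates 2 to 5.

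The partners of the Tie receptors showed no such split. Of 17 tested genes of this list, 0 passed the edgeR test, 12 were above 0 and 5 below, and the median log2 fold change was 0.12. Ptprb, which encodes the phosphatase VE-PTP that dephosphorylates TIE2, had a log2 fold change of -0.11 (SE 0.18). Foxo1, a transcription factor held back by TIE2 signalling and known to drive Angpt2, had -0.07 (SE 0.10), and Nos3, the endothelial nitric oxide synthase, 0.06 (SE 0.13). Itga5, an integrin subunit that also binds angiopoietins, stood at 49.0 ± 13.7 CPM in the Sham and 74.8 ± 17.2 CPM in the HLI libraries (SD, n = 5; edgeR adjusted p = 0.29). Shc1, an adaptor of receptor kinases, had a log2 fold change of 0.36 (SE 0.14) and Itgav, an integrin subunit, 0.32 (SE 0.16). The unadjusted p was under 0.05 in 2 members, Itga5 and Shc1, both higher, near the 10.7% of all genes.

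Among the partners of apelin, 18 genes were tested and 0 passed the edgeR test, with 13 above 0, 5 below and a median of 0.16. Apela, the second ligand gene of the receptor, was too low to be tested. Gnai2, an inhibitory G protein subunit, stood at 166 ± 25.2 CPM in the Sham and 221 ± 39.7 CPM in the HLI libraries (SD, n = 5). Klf2, a flow-responsive transcription factor, had 22.5 ± 3.36 and 29.8 ± 6.49 CPM, and Arrb2, a β-arrestin gene, 13.2 ± 3.77 and 20.1 ± 7.10 CPM (edgeR adjusted p = 0.29 for all 3). The peptidase gene Mme, whose product cleaves apelin, differed by 0.25 (SE 0.25) on the log2 scale. An unadjusted p under 0.05 was found in 4 members, all higher, against 10.7% of all genes.

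Other tip cell genes were closer to Apln. Of 20 tested, 0 passed the edgeR test with all libraries, 17 were above 0 and the median was 0.46. An unadjusted p under 0.05 was found in 8, all higher, against 10.7% of all genes and 5 of the 16 endothelial markers. Trp53i11, listed as a tip cell transcript, was at 43.2, 15.6, 17.8, 17.7 and 22.4 CPM in Sham replicates 1 to 5 and at 22.2, 56.6, 48.8, 45.7 and 63.5 CPM in HLI replicates 1 to 5. Here too Sham replicate 1 was with the HLI libraries and HLI replicate 1 with the Sham libraries. Cxcr4, a chemokine receptor gene, was at 29.4 CPM in Sham replicate 1 and at 6.10 to 11.1 CPM in the other Sham libraries, but HLI replicate 1, at 25.7 CPM, was among the other HLI libraries (23.4 to 43.8 CPM). Nid2, a basement membrane gene, had 57.4 ± 15.9 and 89.5 ± 30.8 CPM (SD, n = 5). Without both replicates 1, 4 of the 20 were called higher by edgeR, against 0.379% of all genes and 2 of the 16 endothelial markers. These 4 were Cxcr4, Trp53i11, Unc5b, a netrin receptor gene, and Igfbp3, which encodes an IGF binding protein.

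Markers of the vessel types and neighbouring cells were read beside these values, and in each list 0 genes passed the edgeR test with all libraries. All 16 endothelial markers and all 6 arterial markers had log2 fold changes above 0, with medians of 0.23 and 0.25; Rasip1, Cldn5 and Cd93 had the smallest p of the endothelial list, at log2 fold changes of 0.42, 0.53 and 0.62. Summed endothelial markers ran from 1061 to 1894 CPM in Sham and from 1224 to 1938 CPM in HLI. Of 5 venous markers, the type in which Aplnr is most often found, 3 were above 0 and the median was 0.0016. The 7 lymphatic markers, of cells that also use Angpt2 and Tie1, had a median of -0.02, with 2 above 0 and 5 below. The 12 pericyte and smooth muscle markers, of cells that make Angpt1, had a median of -0.16. On log2(TPM + 1), a scale chosen for the lists after seeing the data, the median of all genes was 0.19. There the venous median was 0.12, the pericyte median 0.035 and the lymphatic median -0.23. Relative to the median of all genes these were -0.068, -0.15 and -0.41. All 10 macrophage markers were above 0, with a median of 0.91 and summed levels of 655 to 1639 CPM in Sham and 843 to 3438 CPM in HLI. Macrophage markers were highest in HLI replicate 1, the HLI library in which Apln, Aplnr, Tie1, Angpt2 and Esm1 were lowest. HLI replicate 3 was close to it in macrophage markers, at 3133 CPM, but had Apln at 27.6 and Aplnr at 157 CPM. In HLI replicate 1 these 2 genes were at 13.8 and 73.8 CPM. The 11 muscle fibre markers had a median of -0.50, the 9 fibro-adipogenic markers 0.23 and the 5 satellite cell markers 0.31. Medians were -0.41 for 5 adipocyte, -0.25 for 5 Schwann cell, 0.099 for 4 platelet and -0.19 for 5 neutrophil markers. With both replicates 1 left out they were -0.19 for platelet and -1.07 for the 4 neutrophil markers then tested, and on log2(TPM + 1) the neutrophil median was 0.15, or -0.038 relative to all genes. The neutrophil genes S100a8 and Ly6g were at 0 in at least 1 library. The part of these cell types in the results was not tested.

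For each gene, the 2 genes of the table with the most similar levels were taken, by Pearson correlation of log2 CPM over the 10 libraries among genes with a mean of at least 5 CPM. Tie1 was most like Dll4, a Notch ligand gene of tip cells (r = 0.98, Spearman rho = 1), and Cdh5, the VE-cadherin gene (r = 0.98, rho = 0.94). Apln was most like Trp53i11 (r = 0.97, rho = 0.92) and Raph1 (r = 0.97, rho = 0.93), and Aplnr most like Stx6 (r = 0.98, rho = 0.96) and Plxnd1, a semaphorin receptor gene (r = 0.98, rho = 0.89). Angpt2 and Esm1 shared a neighbour, Mecom, a transcription factor gene, at r = 0.95 and 0.97, besides Rnf125 for Angpt2 (r = 0.95) and Notch4 for Esm1 (r = 0.96). Tek was most like Ltbp4, a gene of TGF-β storage in matrix (r = 0.99), and Mgll (r = 0.95), and Angpt1 was most like Gabpa and Zfp280d (r = 0.99 for each). These are the highest of 10586 or 10587 correlations each over 10 libraries, given as a description.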

How the data were processed

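RNA libraries of gastrocnemius muscle from 5 Sham and 5 HLI samples were compared. The authors deposited estimated counts, not normalized, and TPM values, scaled for gene length, per the file headers, for 21956 genes. HISAT2 2.0, Bowtie 0.12.2 and build mm8 are named without a role, per the submitters' processing notes. Neither the counting tool nor the annotation nor the use of strand is stated, so overlapping or antisense genes may share reads. The series text speaks of cells and the sample protocol of adipose material, so the handling is uncertain.

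Estimated counts were rounded and compared by edgeR 4.0.16 in R 4.3.3 (quasi-likelihood F test, TMM, filterByExpr at a minimum count of 10 and minimum total of 15, leaving 13404 genes, Benjamini-Hochberg adjustment over all). The standard error of a log2 fold change was taken from the test statistic. Levels in CPM use TMM-scaled library sizes. For values relative to endothelial markers, log2 CPM (prior count 2) minus the marker mean was fitted for all genes with limma-trend (limma 3.58.1). Ratios of TPM were compared by exact two-sided permutation over 252 assignments. In simulated counts of 13404 genes for this comparison, edgeR recovered 68% of 100 genes changed 2-fold and 96% of 100 changed 4-fold, and the relative fit 63% and 97%. Each gene was drawn independently, without shifts shared across a library such as those of Sham replicate 1 and HLI replicate 1. These percentages therefore need not hold for the real libraries.

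The 7 genes and all lists were chosen with earlier results of these data known. Besides the 7, the text names the 2 most similar genes of each and, per list, up to 3 of lowest unadjusted p with 1 CPM or more on average; others (Ptprb, Foxo1, Nos3, Mme, Unc5b, Igfbp3) were added after their values were seen. The 3 smallest-p genes of the other marker lists are not described. Alternatives were DESeq2 1.42.0 and its size factors, other filters, priors, units, pseudocounts and reference markers, a replicate block, and libraries left out.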

Additional observations from a re-analysis of the deposited data

Results flagged for a closer look

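Among 20 sets of 5 values, 1 per gene or ratio and group, 2 held a library far from the other 4 by Dixon's criterion. The criterion flags 1 in 20 independent sets by chance. These sets share genes and libraries, so the count was not read against chance. Both flagged values were in Sham replicate 1. Apln was at 23.6 CPM, against 9.06 to 12.7 CPM in the other Sham libraries. Esm1 was at 4.74 CPM, against 1.72 to 2.33 CPM. The same library held 164 CPM of Myh3, and its part in these levels was not tested.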

How the results depend on the processing

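For HLI against Sham not set relative to markers, the number of genes called was 0 under every setting run but 2: DESeq2 called 45, and edgeR without Sham replicate 1 and HLI replicate 1 called 54. Relative to endothelial markers limma-trend called 0 with all libraries, 6544 without both replicates 1, 2333 without HLI replicate 1, 65 with the replicate block, 2 without HLI replicate 4, 1 without Sham replicate 3 and 0 under the other settings run. Without those 2 libraries Apln (1.37) and Aplnr (1.02) passed by edgeR, as did Apln (0.85), Aplnr (0.51) and Tek (-0.61) relative to endothelial markers. Leaving out 1 library gave log2 fold changes of 0.79 to 1.22 for Apln, 0.40 to 0.87 for Aplnr, 0.34 to 0.61 for Angpt2, 0.29 to 0.74 for Angpt1, 0.18 to 0.67 for Esm1, 0.18 to 0.44 for Tie1 and -0.26 to -0.094 for Tek. On the scale relative to endothelial markers it gave 0.54 to 0.77 for Apln, 0.24 to 0.45 for Aplnr, -0.55 to -0.37 for Tek, -0.040 to 0.044 for Tie1 and -0.029 to 0.21 for Esm1, and Tie1 was -0.017 with the median of the markers. The log2 fold change of Tek was 0.0301 on log2(TPM + 1) and 0.0306 on log2(TPM + 0.1). For the ratios, leaving out 1 library gave -0.57 to -0.41 for Tek over Tie1, -0.25 to 0.13 for Angpt2 over Angpt1 and 0.25 to 0.49 for Apln over Aplnr. Tek over Tie1 was -0.65 (adjusted p = 0.086) without both replicates 1. The median of lymphatic markers was -0.42 without both replicates 1, -0.48 with the replicate block and -0.33 to 0.065 without 1 library; that of Myh3 and Myh8 was 6.14 without both and 1.64 to 5.82 without 1 library, the highest without Sham replicate 1. On log2(TPM + 1), chosen for the lists after seeing the data, the median was 0.28 for Tie pathway partners, 0.36 for apelin pathway partners and 0.035 for pericyte and smooth muscle markers. The labels do not say that replicate numbers pair libraries, and the numbers were not taken to do so. In 3 of 5 same-numbered pairs the correlation of deviations was over 0.1 (range -0.01 to 0.28). Of the Sham libraries 2 of 5 correlated best with their own number, and of the HLI libraries 0 of 5. With the replicate block edgeR called 0 genes, 2986 had an unadjusted p under 0.05 against 2262 without it, and Tek over Tie1 was -0.46 (exact sign-flip permutation adjusted p = 0.28, smallest possible p 0.063). Angpt1 with the block was at 0.51 (SE 0.18, edgeR unadjusted p = 0.023, adjusted p = 0.18). Without the block its SE was 0.35 (edgeR unadjusted p = 0.15). The causes were not tested. Depth limits Esm1 most, at 26 to 84 counts.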
